A study of Mus musculus with 6 samples.

Results

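A set of 9 transcription factors that mark the cell lineages of the mammary gland were followed in tumor cells sorted from a mouse model of breast cancer. They were taken by name, as basal (Trp63), luminal progenitor (Sox9, Sox10), alveolar (Elf5, Ehf) and hormone-sensing (Gata3, Foxa1, Esr1, Pgr) factors, and all 9 were among the 22310 genes of the expression table. The cells came from spontaneous tumors of adult MMTV-PyMT mice on the FVB/N background, in which the viral promoter MMTV drives the polyoma middle T oncogene in mammary epithelium, and every library carries this transgene (the labels give the genotype otherwise as WT). After a night in culture the cells were sorted into metastasis-initiating cells (MICs), which lack blood and endothelial lineage markers and carry both CD24 and CD90 (Lin-CD24+CD90+), and non-MICs, which differ by the absence of CD90 (Lin-CD24+CD90-). RNA from 3 libraries of each population was sequenced, and both populations carry the replicate numbers 1 to 3. The labels do not give the age of single mice or say whether a library holds cells of 1 animal or of several.

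The mammary epithelium has an outer basal layer, which contracts and touches the basement membrane, and an inner luminal layer. p63, the product of Trp63, is required for basal identity. Sox9 and Sox10 are related HMG-box factors found in stem and progenitor cells of the gland. Elf5 and Ehf belong to the ETS family, and Elf5 directs luminal progenitors towards milk-producing alveolar cells. The hormone-sensing luminal cells carry the estrogen receptor (Esr1) and the progesterone receptor (Pgr) and need Gata3 and the pioneer factor Foxa1, which opens chromatin for the estrogen receptor.

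The basal factor was higher in MICs, and the progenitor and alveolar factors were lower, while the hormone-sensing factors showed no common direction. Trp63 was higher in MICs in each of the 3 same-numbered pairs, by 1.91, 0.57 and 0.47 on the log2 scale in pairs 1, 2 and 3. In bulk samples such as these, fewer cells of a type and less RNA per cell cannot be told apart. Elf5, Ehf, Sox9 and Sox10 were lower in MICs in each pair. Elf5 had the largest mean difference of these, -1.09 ± 0.19 (SD of 3 pairs), with MIC normalized reads at 0.403, 0.507 and 0.487 times those of their partners. None of the 9 passed a test adjusted over all genes without the pairing. With it, limma called none, edgeR called Trp63, Elf5 and Sox10, and DESeq2 called Elf5. The edgeR calls were lost when pair 1 was left out, a fit that called 33 genes of the whole table, against 315 with all pairs.

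The deposited values are gene counts scaled to a total of 35000000 per library, called normalized reads here. Behind them stand between 31467281 and 51759769 reads per library that were counted in the genes of the expression table, which leaves out reads not counted there. Differences between populations are given as log2(value + 1), on which genes with few reads appear to differ less than they do. Thy1, the gene for CD90, had 1399, 271 and 1117 reads in MIC libraries 1, 2 and 3 and 16, 20 and 18 in the non-MIC libraries, so the sort is visible in the RNA. Cd24a had at least 10488 reads in every library. The epithelial genes Krt8, Krt18, Epcam and Cdh1 were abundant in every library, with at least 8732 reads each. Dividing by the smallest step of each library gave whole numbers, within 0.01 of a read, for at least 99.97% of its values, so the reads could be recovered and tested.

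Trp63 lies on chromosome 16 of GRCm38 (chr16:25683763-25892102, plus strand). Its normalized reads were 1124, 380 and 319 in MIC libraries 1, 2 and 3 and 298, 257 and 230 in non-MIC libraries 1, 2 and 3. Every MIC library was above every non-MIC library, and MIC library 1 stood far above the other MIC libraries. On the log2 scale MICs averaged 9.01 ± 0.98 and non-MICs 8.03 ± 0.19 (SD, n = 3 each), so the non-MICs were alike and the MICs were not (exact two-sided permutation test, p = 0.1, the smallest that 3 against 3 can give). In linear terms MICs had 3.76, 1.48 and 1.39 times the value of their non-MIC partners. The counts add all transcripts of the gene, so the long and the N-terminally truncated forms of p63, which start at different promoters, cannot be told apart.

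Sox9 (chr11:112782224-112787760, plus strand) was the most abundant of the 9 factors. Its normalized reads were 4104, 4689 and 4901 in MIC libraries 1, 2 and 3 and 8188, 6193 and 5267 in the non-MIC libraries. The populations did not overlap, with all MIC values below all non-MIC values (exact two-sided permutation test, p = 0.1). The pairs differed in size, with log2 differences of -0.996, -0.40 and -0.10, and in pair 3 the MIC value was 0.931 times that of its partner.

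Sox10 (chr15:79154908-79165240, minus strand) had 1923, 978 and 1162 normalized reads in MIC libraries 1, 2 and 3 and 4401, 1215 and 1628 in the non-MIC libraries. Here the populations overlapped, since MIC library 1 exceeded non-MIC libraries 2 and 3, but within each pair MICs were lower, by log2 differences of -1.19, -0.31 and -0.49. Sox9 and Sox10 are close paralogs. None of the 75-base windows of their annotated transcripts, the read length in the labels, occurred in a transcript of any other gene, so exact 75-base matches could not move reads between them.

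Elf5 lies on chromosome 2 (chr2:103411688-103450989, plus strand). Its normalized reads were 435, 14.5 and 542 in MIC libraries 1, 2 and 3 and 1079, 28.5 and 1112 in the non-MIC libraries. Both libraries of pair 2 were far below all others and rested on 13 and 27 reads. Non-MIC library 2 therefore lay below MIC libraries 1 and 3, and the populations overlapped, although within each pair the MIC value was lower. The log2 differences of -1.31, -0.93 and -1.04 were nearly the same across pair levels that spanned 36.4-fold (exact two-sided permutation test without the pairs, p = 0.5).

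Ehf, its ETS relative, lies 108 kb away on the same chromosome (chr2:103263433-103303278, minus strand). It had 604, 865 and 3810 normalized reads in MIC libraries 1, 2 and 3 and 1660, 926 and 5080 in the non-MIC libraries. Pair 3 was the highest in both populations. MICs were lower by a log2 difference of -1.46 in pair 1 and -0.42 in pair 3, and by only -0.097 in pair 2, the pair in which Elf5 was nearly absent.

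RefSeq gives 2 starts for Elf5. The bases before the second start (GRCm38.p6, chr2:103423818-103424061, plus strand) are shown because Elf5 had the largest mean difference of the 9 factors and similar values of it in the 3 pairs. They lie in an intron of the longer GENCODE transcript and end where the first exon of the shorter transcript begins. Capitals mark GGAA on either strand (GGAA or TTCC as printed), the core letters of ETS sites.

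Elf5, second start: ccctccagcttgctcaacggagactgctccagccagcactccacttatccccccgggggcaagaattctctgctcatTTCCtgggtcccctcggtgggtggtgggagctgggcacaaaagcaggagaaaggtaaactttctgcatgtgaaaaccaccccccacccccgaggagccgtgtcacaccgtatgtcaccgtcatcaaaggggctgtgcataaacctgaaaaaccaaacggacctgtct

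This window of 244 bases held 1 match to GGAA. Of the 32851 RefSeq promoter windows of 250 bases before a start, 93.4% held at least 1. Neither TTCNNNGAA, the letters that STAT factors bind, nor AGATAA or TGATAA, the letters of GATA factors, was found on either strand of the window. Among all promoter windows 7.02% held the first and 16.6% the second. A match, or its absence, describes only these letters.

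**Figure D1:**
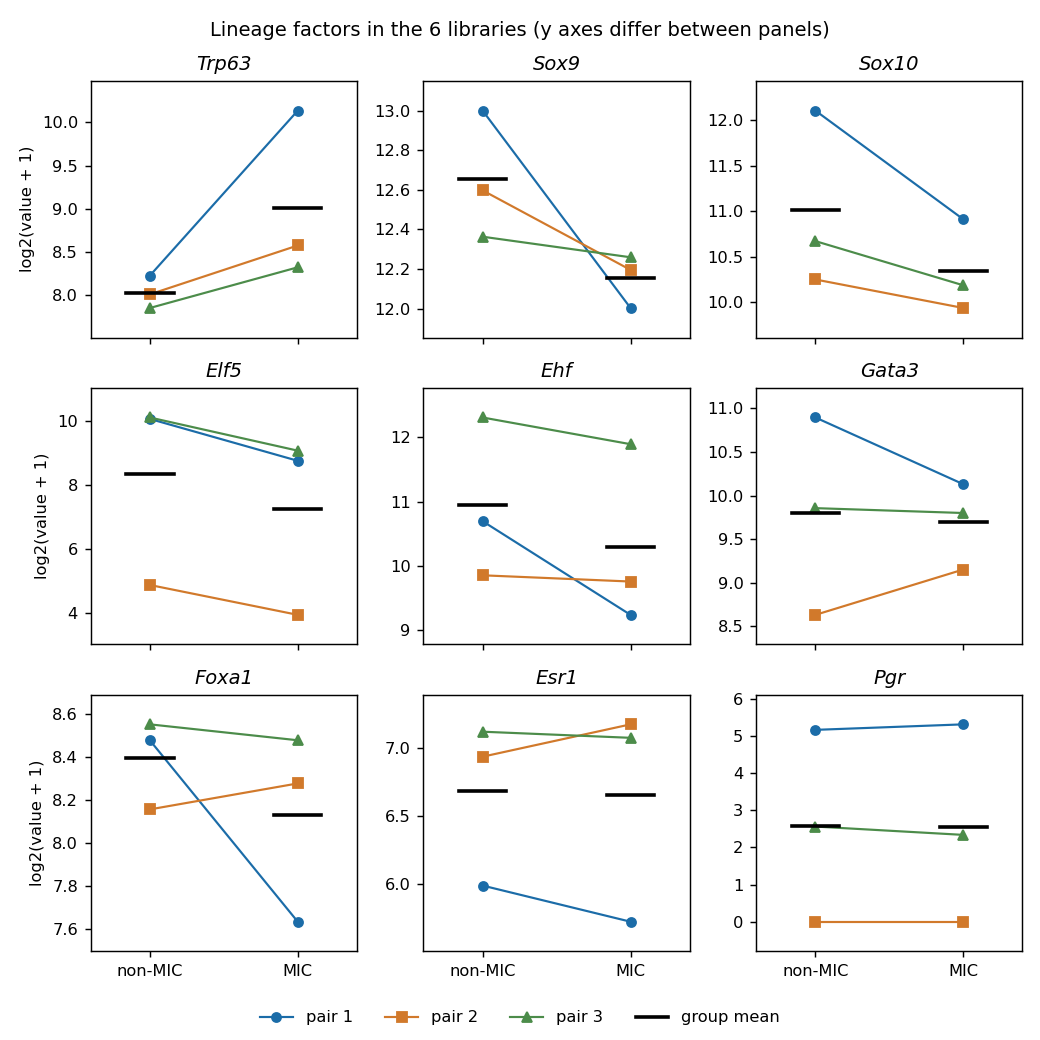
Log2(value + 1) of each factor in non-MICs (left) and MICs (right) of each panel, with a line joining the libraries of each same-numbered pair and a black bar at the mean of 3 libraries. The y axes differ between panels. All 3 lines climb for Trp63 and descend for Sox9, Sox10, Elf5 and Ehf, while Gata3, Foxa1, Esr1 and Pgr have lines in different directions.

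The hormone-sensing factors were mixed. Gata3 (chr2:9857078-9890034, minus strand) had 1119, 567 and 890 normalized reads in MIC libraries 1, 2 and 3 and 1904, 395 and 925 in the non-MIC libraries. It was lower in MICs in pair 1 (log2 difference -0.77), higher in pair 2 (0.52) and nearly equal in pair 3 (-0.056). Of its annotated exon bases, 77 are shared with 9230102O04Rik on the same strand, which never exceeded 10 reads, and 155 with Gm13256 on the opposite strand, which was not analysed here. Foxa1 (chr12:57540628-57546916, minus strand) had 197, 309 and 356 normalized reads in MICs and 356, 284 and 375 in non-MICs, with log2 differences of -0.85, 0.12 and -0.07. Only MIC library 1 stood below the narrow range of the other 5 libraries.

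Esr1 and Pgr, the receptors themselves, were low in every library. Esr1 (chr10:4611593-5005614, plus strand) had 48, 129 and 198 reads in MIC libraries 1, 2 and 3 and 59, 115 and 197 in the non-MIC libraries. Its log2 differences were -0.27, 0.24 and -0.05, and its group means of 6.66 ± 0.81 and 6.68 ± 0.61 (SD, n = 3 each) nearly coincided. The levels differed more between pairs than between populations, with pair 1 the lowest in both populations. Pgr (chr9:8899833-8968611, plus strand) had 36, 0 and 6 reads in MICs and 33, 0 and 7 in non-MICs. In the libraries of pair 2 a count of 0 allows up to 3 reads, or 3.34 normalized reads in MICs and 3.17 in non-MICs, by counting error alone. At this depth no difference in Pgr between the populations was detectable.

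**Figure D2:**
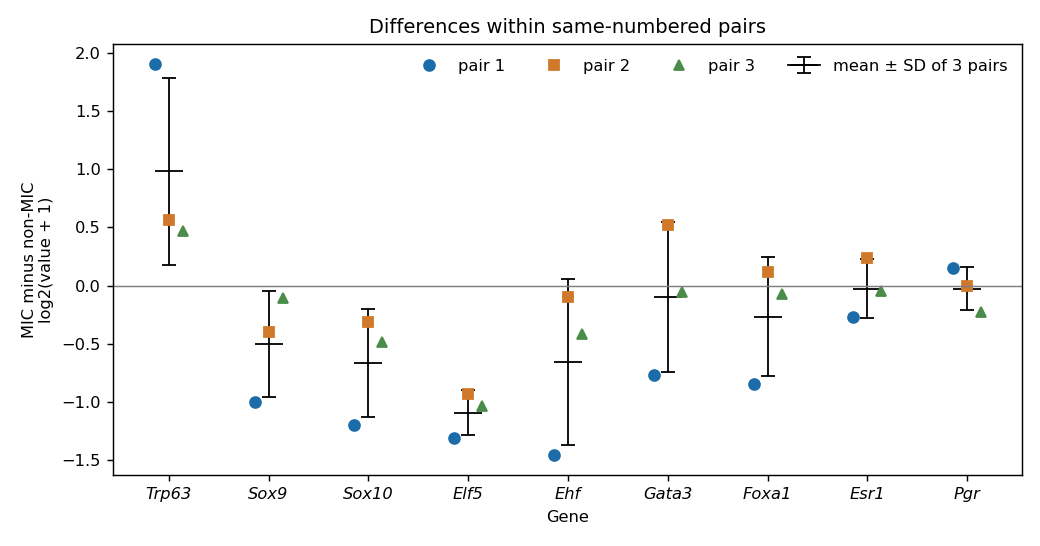
Difference of log2(value + 1), MIC minus non-MIC, for each factor in the 3 same-numbered pairs, with the mean and SD of the 3 pairs in black. Trp63 lies between 0.47 and 1.91, Elf5 between -1.31 and -0.93, and the 4 hormone-sensing factors have pairs on both sides of 0 or at 0.

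With limma on all 22310 genes and without the pairing, 0 of the 9 factors and 0% of all genes had a Benjamini-Hochberg adjusted p-value of 0.05 or less, and 0 of the 9 and 322 of all genes had an unadjusted p-value under 0.05. edgeR's quasi-likelihood test on the recovered reads, also without the pairing, called 0 genes, with 295 genes, among them 1 of the factors (Trp63), at an unadjusted p-value under 0.05. DESeq2 without the pairing called 1 gene and none of the factors. The smallest adjusted p-value among the factors in limma was 1.00. The libraries that share a number deviated together, so fits with this number as a blocking term follow.

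With the replicate block in limma, 0 of the 9 factors were called, against 0.13% of all genes. Of the 9 factors, 5 had an unadjusted p-value under 0.05, as had 2501 of all genes (11.2%). Of these 5, Trp63 was higher in MICs and Elf5, Sox10, Ehf and Sox9 were lower. Among the factors Elf5 had the smallest p-value, with a log2 difference of -1.09 ± 0.23 (SE) and an adjusted p of 0.139. Trp63 followed with 0.98 ± 0.27 (SE) and an adjusted p of 0.353. edgeR's quasi-likelihood test with the block called 3 of the 9 factors, against 1.41% of all genes, which were Elf5 (adjusted p = 0.000449), Trp63 (adjusted p = 0.00182) and Sox10 (adjusted p = 0.0496). Ehf had an adjusted p of 0.068 and Sox9 of 0.251 in the same test. DESeq2 with the block called Elf5 alone of the 9 (adjusted p = 0.00253), against 0.596% of all genes, and gave Trp63 an adjusted p of 0.0617. When pair 1 was left out, edgeR with the block called 33 genes of the table and 0 of the factors. The adjusted p-values were 0.459 for Elf5 and 1.00 for Trp63 and Sox10. The log2 differences were then -1.001 for Elf5, 0.50 for Trp63 and -0.42 for Sox10. Without pair 2 it called 4 factors, Ehf being the fourth (adjusted p = 0.0186), and without pair 3 it called the 3 named above. Those fits called 489 and 783 genes of the table. The labels do not say that the libraries come from separate animals, and the paper counts its replicates as independent experiments or tumors without saying which, so these p-values measure the spread between libraries, which may be in part technical.

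Direction across pairs was compared with the rest of the table. The factors were chosen with earlier results of these data known, so the comparison is a description and not a test. Among the factors, 1 of 9 was higher in MICs in all 3 pairs, against 12.5% of all genes, and 4 of 9 were lower in all 3, against 18.8%. Among the 12060 genes with a mean of at least 50 normalized reads, to which 8 of the factors belong (all but Pgr), 13.4% were higher and 27.5% were lower in all 3 pairs. The MIC and non-MIC values did not overlap for 2 of the 9, Trp63 and Sox9, against 6.24% of all genes. Over all genes the median log2 difference of pairs 1, 2 and 3 was -0.015, 0.039 and -0.051, smaller in size than every pair difference of Trp63, Sox9, Sox10, Elf5 and Ehf.

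The distance between pairs was larger than the distance between populations for most of the factors. The SD of the 3 pair levels exceeded the mean difference between populations in 6 of the 9. For Elf5 it was 2.94 log2 units, against a difference of -1.09, and for Ehf 1.28, against -0.66. Gata3, Esr1 and Sox10 had 0.81, 0.71 and 0.74. Pgr had 2.62. Sox9 was the exception at the other end, with pair levels that differed by an SD of only 0.095 against a difference of -0.50. Trp63, with 0.58 against 0.98, and Foxa1, with 0.23 against -0.27, also differed less between pairs than between populations. Pair 2 was the lowest pair for Elf5, Ehf, Gata3, Sox10 and Pgr. The lowest was pair 3 for Trp63 and Sox9 and pair 1 for Foxa1 and Esr1. Pair 1 was the highest for Trp63, Sox9, Sox10, Gata3 and Pgr, and pair 3 for Elf5, Ehf, Foxa1 and Esr1.

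Levels of different genes were compared as reads per kilobase of exon, scaled to library depth (RPKM, computed here from the recovered reads and the union of annotated exons). By the median over 6 libraries the order was Sox9 at 35.1, Sox10 at 13.3, Ehf at 6.62, Gata3 at 6.52, Foxa1 at 2.85, Elf5 at 2.37, Trp63 at 1.05, Esr1 at 0.267 and Pgr at 0.015. Sox9 exceeded Sox10, Gata3 exceeded Foxa1 and Trp63 exceeded Esr1 in all 6 libraries. Neighbours in the order were not separated in 4 cases. Sox10 exceeded Ehf, and Ehf exceeded Gata3, in 4 of 6 libraries, and Foxa1 exceeded Elf5, and Elf5 exceeded Trp63, in 3 of 6. Esr1 exceeded Pgr in 5 of 6, the exception being MIC library 1, where Pgr had 0.13 and Esr1 0.108 RPKM.

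The balance of Elf5 and Trp63 differed between libraries. Elf5 exceeded Trp63 in both non-MIC libraries with Elf5 well expressed, at 5.24 against 1.02 RPKM in pair 1 and 5.41 against 0.783 in pair 3. In MIC library 1 the order turned, with 2.11 RPKM for Elf5 and 3.83 for Trp63, while in MIC library 3 Elf5 remained higher at 2.63 against 1.09. In pair 2, Trp63 exceeded Elf5 in both populations.

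**Figure D3:**
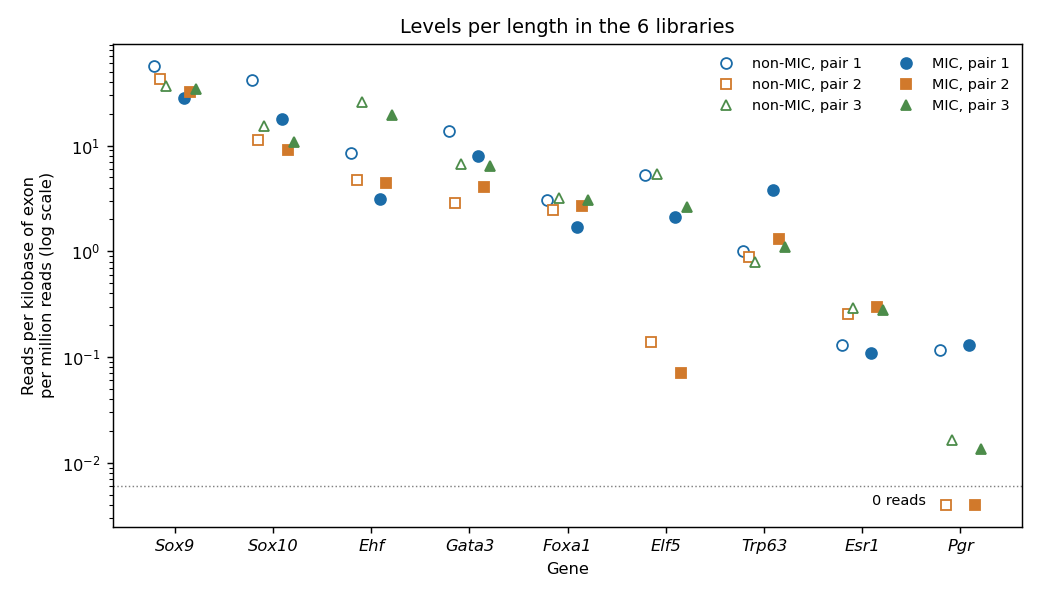
RPKM of each factor (log axis), in order of the median, with open symbols for non-MICs and filled symbols for MICs and 1 symbol shape per pair. Sox9 lies between 28.4 and 56.6 in all libraries, Elf5 spreads from 0.07 to 5.41, and both Pgr libraries of pair 2 have 0 reads.

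Other genes of the same lineages were examined in lists. These too were chosen with earlier results of these data known, so their counts beside all genes are a description and not a test. Over all genes, edgeR with the block called 1.41% (232 genes higher and 83 lower in MICs), limma with it 0.13% and DESeq2 with it 0.596%. These shares apply beside the calls of each list that follows. Of 12 other factors of basal cells, edgeR with the block called 2, both higher in MICs, and limma with the block called 0. These were Snai2, a repressor that basal cells share with epithelial-to-mesenchymal transition (log2 differences of 2.06, 0.58 and 1.27, edgeR adjusted p = 1.40e-05), and Irx4, a homeobox gene (2.30 and 0.82 in pairs 1 and 3, adjusted p = 7.10e-06). Irx4 had 568, 11 and 14 reads in MIC libraries 1, 2 and 3 and 117, 0 and 7 in the non-MIC libraries, and no difference is given for pair 2, where non-MICs had no read. The median log2 difference of the list was 0.46, against -0.04 over all genes. In all 3 pairs 4 of the 12 were higher and 1 lower, against 12.5% and 18.8% of all genes. In pair 2 the list's median was -0.11. Both calls were lost in edgeR with the block when pair 1 was left out (adjusted p = 0.62 for Snai2 and 1.00 for Irx4). With all pairs, DESeq2 with the block called Snai2 (adjusted p = 0.00255) and not Irx4 (adjusted p = 0.293).

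Of 20 basal genes known as p63 targets, limma with the block called 1, Krt5, and edgeR with the block 2, Krt5 and Col17a1, all higher in MICs. Krt5, the keratin that pairs with Krt14 in basal cells, had differences of 3.45, 2.04 and 1.202 (limma adjusted p = 0.0121). Col17a1, a hemidesmosome collagen, had 3.05, 0.77 and 1.17 (edgeR adjusted p = 2.32e-12, limma adjusted p = 0.113). With all pairs, DESeq2 with the block called Krt5 (adjusted p = 0.0317) and not Col17a1 (adjusted p = 0.263). Without pair 1, edgeR with the block still called Krt5 (adjusted p = 8.43e-06) and did not call Col17a1 (adjusted p = 0.261). Leaving out pair 3, limma with the block could call no gene of the table, Thy1 included (smallest adjusted p = 0.453), so that fit is not used for single genes. The list did not move as a whole. Its median differences were 0.84, -0.40 and 0.25 in pairs 1, 2 and 3. In all 3 pairs 3 of the 20 were higher and 1 lower, against 12.5% and 18.8% of all genes. Krt14 had 0.50, -0.90 and 0.11, and Itga3, the integrin chain with the most reads of the list, had 0.04, -0.46 and 0.09.

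The 16 other factors of luminal progenitor and alveolar cells had no gene called by limma with or without the block or by edgeR with it. In all 3 pairs 12 of the 16 were lower in MICs and 0 were higher, against the 27.5% of well-expressed genes that were lower. Because the list was chosen with earlier results known, this count describes its members and is no test of the lineage. The median differences of the 16 were -0.71, -0.28 and -0.16 in pairs 1, 2 and 3. Among them were Nfib (-1.30, -0.06 and -0.23), Grhl2, a guardian of epithelial junctions (-0.93, -0.59 and -0.11), and Klf5 (-0.87, -0.32 and -0.15). Sox4, the most abundant of the list, had -0.85, 0.15 and -0.11.

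Of 16 milk and alveolar genes, 12 were in the table. Limma with the block called 1, Ltf, and edgeR with the block called 3, Ltf, Wfdc18 and Kit, all lower in MICs. Ltf, the gene for lactoferrin, had 2193, 34 and 2395 reads in MIC libraries 1, 2 and 3 and 8425, 136 and 4229 in the non-MIC libraries. As with Elf5, both libraries of pair 2 were far below the rest. Its log2 differences were -1.91, -1.90 and -0.87 (limma adjusted p = 0.0122). Kit, the receptor of luminal progenitors, had 304, 14 and 937 reads in MICs and 879, 15 and 1444 in non-MICs (edgeR adjusted p = 0.0209). Kit was also at its lowest in pair 2, where its difference was only -0.02. Wfdc18, a secreted whey-type protein, had differences of -1.201, -0.15 and -1.33 (edgeR adjusted p = 0.00101). Without pair 1, edgeR with the block called Ltf (adjusted p = 0.00462) but neither Kit (adjusted p = 1.00) nor Wfdc18 (adjusted p = 0.62), and without pair 3 Kit and Wfdc18 were also lost (adjusted p = 0.0929 and 0.0831). In limma with the block Ltf was lost without pair 1 (adjusted p = 0.233). With all pairs, DESeq2 with the block called Ltf (adjusted p = 2.12e-06) and Wfdc18 (adjusted p = 0.0191) and not Kit (adjusted p = 0.164). The casein gene Csn3 had -0.01, 0.70 and -0.44 and did not pass. The list's median differences were -0.33, -0.01 and -0.63.

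Of 12 other factors of hormone-sensing cells, edgeR with the block called 1, Myb, lower in MICs (differences of -1.46, -0.98 and -0.42, adjusted p = 0.0395), and limma with the block called 0. Myb was not called without pair 1 (adjusted p = 1.00) or without pair 2 (adjusted p = 0.061). With all pairs, DESeq2 with the block did not call Myb (adjusted p = 0.163). The list had 5 genes lower and 0 higher in all 3 pairs. Of all genes 18.8% were lower and 12.5% higher, and of well-expressed genes 27.5% and 13.4%. Of 14 genes that respond to the steroid receptors, 13 were in the table, and edgeR with the block called 1, the chemokine gene Cxcl12, higher in MICs (2.19, 0.57 and 0.76, adjusted p = 3.74e-06, and 1.00 without pair 1). DESeq2 with the block also called Cxcl12 (adjusted p = 0.00571). The list's members were split evenly, with 3 higher and 3 lower in all 3 pairs, and its median differences were near 0 in every pair (-0.02, 0.004 and -0.02). Areg, an EGF-family ligand downstream of the estrogen receptor, had 1919, 23844 and 3747 reads in MICs and 2745, 24892 and 3573 in non-MICs. It was highest in both libraries of pair 2, and its differences of -0.49, 0.01 and 0.02 did not separate the populations.

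**Figure D4:**
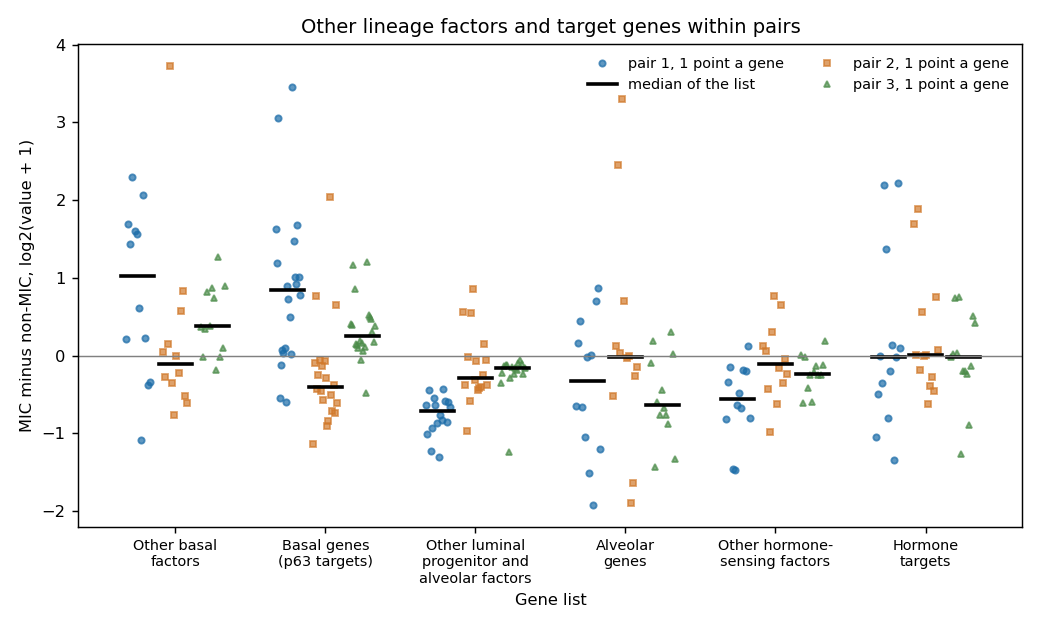
Difference of log2(value + 1), MIC minus non-MIC, of the genes of 6 lists in pairs 1, 2 and 3, with 1 point a gene and a black bar at the list's median. The luminal progenitor and alveolar factors have medians of -0.71, -0.28 and -0.16, all below 0, while the p63 targets have medians of 0.84, -0.40 and 0.25.

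Markers of other cells were read beside these results, and their calls beside the same shares of all genes (1.41% in edgeR and 0.13% in limma with the block). Schwann cells and melanocytes also use Sox10. Of their 12 markers, 8 were in the table and 0 were called, and the summed level was 1275 to 7112 normalized reads in MICs and 1235 to 5090 in non-MICs. Foxd3, Dct, Mlana and Tyr were not analysed here. Of 10 fibroblast markers, edgeR with the block called Col1a2 and Dcn, higher in MICs, of which Dcn was lost without pair 1 (adjusted p = 0.23) or pair 3 (adjusted p = 0.611). With all pairs, DESeq2 with the block called Col1a2 (adjusted p = 2.42e-05) and not Dcn (adjusted p = 0.251). The summed level of the fibroblast markers was 683 to 2401 in MICs and 629 to 1429 in non-MICs. The median difference was 1.76 in pair 3 but -0.17 and 0.08 in pairs 1 and 2. Of 8 markers of pericytes and vascular smooth muscle, limma with the block called Myh11 and Cnn1, and edgeR with it also Cspg4, all higher in MICs. Without pair 3 edgeR with the block lost Cspg4 (adjusted p = 0.163) and called Myh11 (adjusted p = 2.13e-17) and Cnn1 (adjusted p = 3.12e-18). With all pairs, DESeq2 with the block called Myh11 (adjusted p = 1.80e-26) and Cnn1 (adjusted p = 1.13e-26) and not Cspg4 (adjusted p = 0.0564). Myh11 and Cnn1 are also made by basal mammary cells, and the other markers differed in level. Notch3 had 253 to 710 reads and went the other way in pairs 1 and 3, with log2 differences of -1.46, 0.06 and -0.62 in pairs 1, 2 and 3. Cspg4 had 44, 12 and 101 reads in MIC libraries 1, 2 and 3 and 13, 4 and 13 in the non-MIC libraries. Abcc9 had up to 17, Des up to 9, and Rgs5 and Kcnj8 up to 3. The summed level of the list was 1393 to 40498 in MICs and 581 to 8144 in non-MICs, and Myh11 and Cnn1, like Trp63, were highest in MIC library 1. Of the 6 endothelial, 8 blood, 6 erythroid and 5 adipocyte markers, 6, 6, 1 and 2 were in the table and 0 were called. The blood cell gene Ptprc had no more than 14 reads in a library. Other blood markers had more, with 50 to 151 reads for Csf1r and 56 to 307 for Cd68. Lyz2 had 29, 1470 and 210 reads in MIC libraries 1, 2 and 3 and 44, 789 and 195 in the non-MIC libraries. The summed blood markers ranged from 205 to 1982 in MICs and from 224 to 1201 in non-MICs, the endothelial ones from 177 to 384 and from 188 to 293. The part of such cells in the differences of Trp63, Sox10 and Elf5 was not tested.

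The genes whose log2 values followed a factor most closely over the 6 libraries were listed as a description, among genes with a mean of at least 50 normalized reads. The measure was Pearson's r over 6 libraries that form 3 pairs and so are not independent. For Elf5 they were Csf3, Me1 and Tspan15 (r of 0.999, 0.998 and 0.997), for Ehf Rab11fip4, Sytl4 and Dusp16 (0.997, 0.994 and 0.994), and for Trp63 Pcmt1, Manf and Ccn4 (0.983, 0.981 and 0.980). For Sox9 they were Mtmr1, Slc7a4 and Zfp217 (0.997, 0.990 and 0.986), and for Sox10 C1qtnf1, Nkd2 and Sh3d21 (0.999, 0.995 and 0.986). For Gata3 they were Muc1, Slc5a8 and Papln (0.987, 0.985 and 0.985), for Foxa1 Foxo1, BC005537 and Nsd3 (0.994, 0.991 and 0.990), for Esr1 Ripk2, Efna1 and Nupr1 (0.997, 0.994 and 0.994), and for Pgr 2610528J11Rik, Rbpms and Tapbp (0.998, 0.998 and 0.996). No factor was among the 3 nearest genes of another. A near match in profile can go with a much smaller difference between the populations, as for Me1, whose pairs differed by -0.10, -0.10 and -0.06 against -1.31, -0.93 and -1.04 for Elf5.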

How the data were processed

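Tumor cells of MMTV-PyMT mice were sorted a day after plating, and stranded mRNA libraries of 3 MIC and 3 non-MIC samples were sequenced. The authors aligned the reads to GRCm38/mm10, counted them per gene, normalized the counts to library size and kept genes expressed in at least 3 of the 6 libraries, and the deposited signal values are these scaled counts. The paper's text names a Bowtie2/samtools pipeline and the submitters' processing notes name STAR and HTSeq. Versions, and whether counting used strand, are not given in the sources used here. Reads were recovered by dividing each library by the value of 1 read. They set counting error only, since molecular identifiers were not used.

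Symbols, positions and exon lengths came from GENCODE vM21 (22161 of 22310 identifiers matched). The factors and gene lists were chosen with earlier results of these data known. limma 3.58.1 in R 4.3.3 was run on log2(value + 1) with a trend, without a block as the study's own ranking is unpaired, with Benjamini-Hochberg adjustment over 22310 genes. edgeR 4.0.16 and DESeq2 1.42.0 were run on recovered reads. Deviations from the group mean were compared across genes. Libraries sharing a number correlated at 0.573 to 0.746 and other libraries at -0.536 to -0.194, so the numbers were taken as pairs. Deviations cancel within a group, so high values for shared numbers force low ones for the others, and the negative range is not separate evidence. The scripts were tested on simulated data with a narrow and a wide spread between pairs, the narrow one added after the outcome with the wide one was seen. The changed genes were set to differ 4-fold, more than any factor did on average, and recovery of smaller differences was not tested. Fits with the block recovered nearly all changed genes with both spreads. Without it limma and edgeR did so only with the narrow spread and recovered none with the wide one, so a fit without the block that calls nothing carries little information where pairs lie far apart.

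The genes named are the 9 factors, the gate genes, list genes called in a fit with or without the block, at most 4 others of each list by level or difference among genes with at least 10 reads in each library of a population, and for each factor the 3 genes of highest Pearson's r. Ptprc, Rgs5, Kcnj8, Abcc9, Des, Notch3, Itga3, Klf5, Cdh1, Epcam, Krt8 and Krt18 were named as markers or examples after their values were seen. Promoter sequence came from the RefSeq table (GRCm38.p6), which held 5 of the 9 factors, those without an entry being Trp63, Sox9, Sox10 and Ehf. The values of 1 listed marker gene are not reported here.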

Additional observations from a re-analysis of the deposited data

How the results depend on the processing

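Of the 9 factors, Trp63, Sox9 and Sox10 kept the direction of their log2 difference under every alternative run, but not its size. With single libraries left out the difference of Sox10 ranged from -1.04 (without non-MIC library 2) to -0.12 (without non-MIC library 1), that of Trp63 from 0.42 (without MIC library 1) to 1.33 (without MIC library 3), and that of Sox9 from -0.65 (without non-MIC library 3) to -0.33 (without non-MIC library 1). Under the main test 0 genes were called. With the replicate block, which treats the libraries as paired, limma called 29 genes, edgeR 315 and DESeq2 133, and DESeq2 without it called 1. The block with TMM scaling, added after seeing the data, gave 40. With pairs 1 and 2 left out in turn, limma with the block called 11 and 59 genes, and without pair 3 it called 0. In edgeR with the block, leaving out pairs 1, 2 and 3, also added after seeing the data, gave 33, 489 and 783. Factors called numbered 3 in edgeR with the block, 1 in DESeq2 with the block, and 0, 4 and 3 in edgeR with the block without pairs 1, 2 and 3.

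The small differences of the hormone-sensing factors turned positive in several fits. Without pair 1, the log2 difference was 0.23 for Gata3, 0.023 for Foxa1 and 0.097 for Esr1 in limma with the block, and 0.21, 0.0040 and 0.077 in edgeR with the block. Esr1 was also at 0.020 in edgeR, 0.052 in DESeq2, 0.016 in DESeq2 with the block and 0.0083 in edgeR with the block without pair 3. Pgr was at 0.012 with a pseudocount of 10, 0.017 with TMM scaling (also with the block), 0.033 with quantile normalization, 0.14 in edgeR, 0.053 in edgeR with the block, 0.18 in DESeq2 and 0.046 in DESeq2 with the block. It was at 0.074 in limma with the block without pair 3, and at 0.069 and 0.23 in edgeR with the block without pairs 2 and 3. With single libraries left out and no block, the difference ranged from -2.83 to 0.57 for Elf5, -1.46 to 0.022 for Ehf, -0.68 to 0.45 for Gata3, -0.37 to 0.44 for Esr1 and -1.41 to 1.27 for Pgr. The positive value of Elf5 came without MIC library 2 and that of Ehf without non-MIC library 3, where the lone partner of a low or high pair remained. Other causes were not tested. Pgr was not tested under the filter at the median value, and its few reads limit what can be detected.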
